A study of Mus musculus with 12 samples.

Results

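The genes described are 9 complement genes of the mouse, taken by symbol from 57186 genes in the deposited count table. C1qa, C1qb and C1qc encode the A, B and C chains of C1q. C2, C3, C4b and Cfb encode complement C2, C3, C4 and factor B, the components from which the convertase enzymes are assembled. C3ar1 and C5ar1 encode the receptors for the peptides C3a and C5a. All 9 symbols matched 1 row each and all 9 passed the filter on low counts. The study sequenced poly(A) RNA from whole tumours formed in mice by 4T1 cells, which derive from a mammary carcinoma of the mouse and serve as a triple-negative model. The 6 WT tumours came from parental 4T1 cells. The 6 Tn tumours came from 4T1 cells in which Cosmc (C1galt1c1) had been silenced with CRISPR/Cas9, which leaves O-linked glycans truncated to the Tn antigen. Both groups share the cell line, the labelled tissue (breast) and a single labelled batch. Host strain, sex, age, injection site, the size of each tumour and whether the silenced cells were a single clone are not in the labels used here.

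Complement is a cascade of serum and tissue proteins that tags surfaces and recruits immune cells. In the classical pathway C1q binds a target and activates the proteases C1r and C1s, which cleave C4 and C2 to form a C3 convertase. In the alternative pathway factor B joins cleaved C3 to form another convertase. Cleavage of C3 and C5 releases C3a and C5a, which act on receptors of myeloid cells. In tissues C1q is made mainly by macrophages and some dendritic cells, whereas C3, C4 and factor B are made by hepatocytes and also by fibroblasts, epithelium and macrophages.

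Counts per tumour summed to between 113575859 and 156880766. Levels are given as CPM, counts scaled to library size by TMM, and changes as log2 fold changes of Tn over WT with their standard error. Of 19255 genes tested, 19.5% were higher in Tn tumours and 17.4% lower at an adjusted p under 0.05 (edgeR quasi-likelihood test with Benjamini-Hochberg adjustment over all genes tested), and 17.2% had groups that did not overlap in CPM. C1galt1c1 itself averaged 19.6 ± 3.05 CPM in WT tumours and 11.3 ± 0.775 in Tn tumours, without overlap. The labels call the tumours biological replicates. Marker genes set 3 tumours apart from the rest: adipocyte markers summed to 642 CPM in WT tumour 6, B cell markers to 1056 CPM in Tn tumour 4 and keratinocyte markers to 3488 CPM in Tn tumour 6. Each count of calls below was also made without these 3 tumours. In whole tumours, fewer cells of a type and less RNA per cell cannot be told apart.

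Of the 9 complement genes 4 rose, beside the 19.5% of all genes that rose, and 0 fell (edgeR; also 0 at an unadjusted p under 0.05, 0 by DESeq2 and 0 by limma voom). Those that rose were the 3 C1q chains, at about the same fold, and C3ar1. Of the 4 convertase components 0 were called by edgeR, DESeq2 or limma voom, with 1 at an unadjusted edgeR p under 0.05, and C5ar1 was not called either. The groups did not overlap for 3 of the 9 genes, all C1q chains, beside 17.2% of all genes. The median log2 fold change of the 9 was 0.71, and that of all genes tested was 0.015. The count of 4 rises and 0 falls was the same without the 3 tumours set apart.

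**Figure D1:**
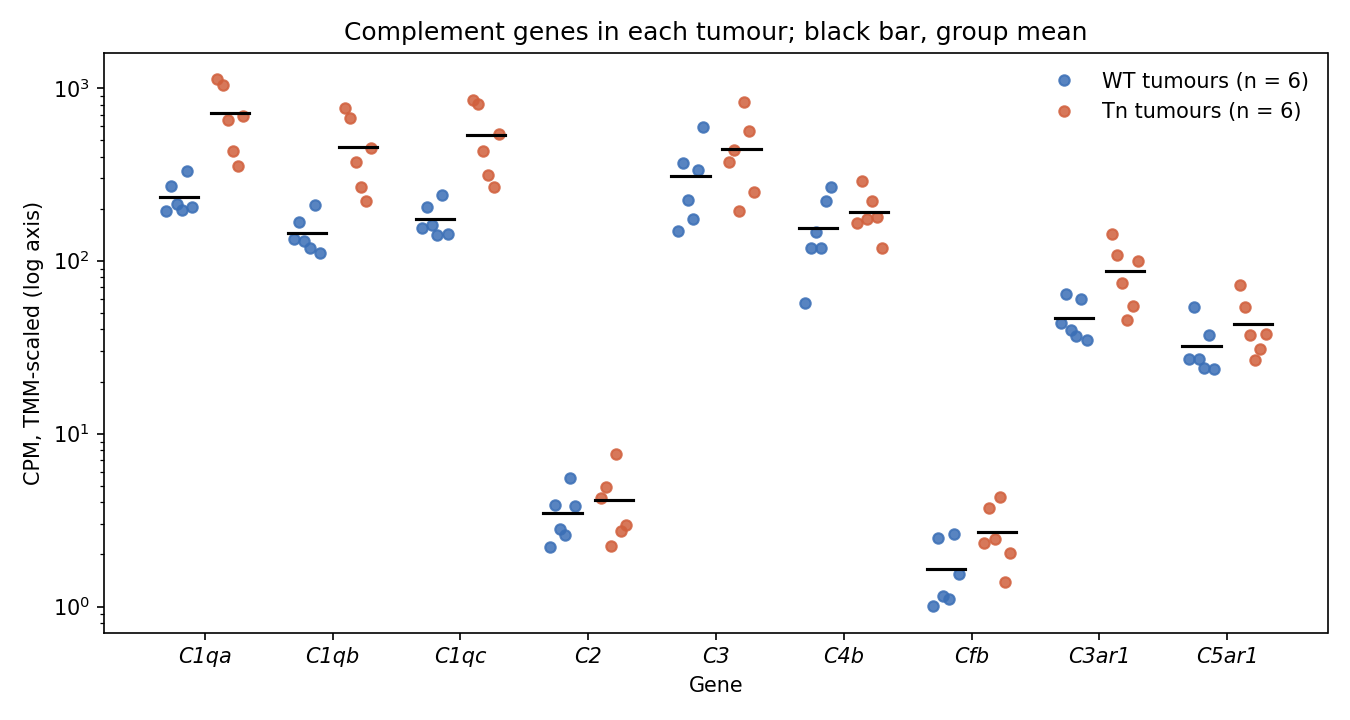
TMM-scaled CPM on a log axis for each complement gene, with 1 point per tumour (blue, 6 WT; orange, 6 Tn) and the group mean as a black bar. The 6 Tn points lie above all 6 WT points for C1qa, C1qb and C1qc, and the groups overlap for the other 6 genes.

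C1qa encodes the A chain of C1q. The 6 WT tumours held 194, 269, 212, 196, 328 and 204 CPM. The 6 Tn tumours held 1118, 1036, 650, 432, 353 and 688 CPM. The groups did not overlap, with Tn tumour 5 lowest of its group and WT tumour 5 highest of its own. The means were 234 ± 53.8 CPM for WT and 713 ± 310 CPM for Tn (SD, n = 6 each). C1qa rose by 1.61 ± 0.27 on the log2 scale (edgeR adjusted p = 0.000973), 3.05-fold with a 95% interval of 2.02 to 4.60.

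C1qb, the B chain, ran from 111 to 209 CPM with a median of 131 in WT tumours. In Tn tumours it ran from 222 to 766 CPM with a median of 411. It rose by 1.66 ± 0.30 on the log2 scale (edgeR adjusted p = 0.00131), or 3.15-fold. C1qc, the C chain, ran from 140 to 239 CPM with a median of 157 in WT and from 266 to 854 CPM with a median of 487 in Tn tumours. The rise was 1.63 ± 0.29 on the log2 scale (edgeR adjusted p = 0.00117), or 3.09-fold. For each chain all 6 Tn tumours were above every WT tumour, and Tn tumours 1 and 2 were the highest. In CPM the Tn tumours were spread more widely than the WT tumours, with an SD of 218 against 37.1 for C1qb and of 248 against 40.0 for C1qc.

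The C1q genes sit next to each other on the minus strand of chromosome 4 (GRCm39, 136607440 to 136626114), in the order C1qb, C1qc, C1qa along the chromosome. C1qb (ENSMUSG00000036905) spans 136607440 to 136613498, C1qc (ENSMUSG00000036896) spans 136617115 to 136620376, and C1qa (ENSMUSG00000036887) spans 136623228 to 136626114. The gap between C1qb and C1qc is 3616 bases and that between C1qc and C1qa is 2851 bases. Their exons overlap no other annotated gene, so each count is a measurement of its own. The 3 genes kept nearly fixed proportions from tumour to tumour. The SD of the log2 ratio over the 12 tumours was 0.055 for C1qb to C1qc, 0.076 for C1qa to C1qc and 0.096 for C1qa to C1qb.

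Promoter sequence is shown for a pair of the C1q genes, which moved together, and for C3, which did not move with them. RefSeq promoter windows (250 bases before to 50 bases after a start) matched 5 of the 9 genes: C1qb, C1qc, C3, C3ar1 and C5ar1. The windows come from the GRCm38.p6 table of RefSeq, and the GRCm39 positions are from an exact match of each sequence to that genome. The C1qb stretch lies at chr4:136613512-136613761, the C1qc stretch at chr4:136620377-136620475 and the C3 stretch at chr17:57535137-57535386, all on the minus strand and written 5′ to 3′. The C1qc stretch is shorter because 151 bases of its window lie within the annotated gene and are left out. Capitals mark motif matches.
C1qb: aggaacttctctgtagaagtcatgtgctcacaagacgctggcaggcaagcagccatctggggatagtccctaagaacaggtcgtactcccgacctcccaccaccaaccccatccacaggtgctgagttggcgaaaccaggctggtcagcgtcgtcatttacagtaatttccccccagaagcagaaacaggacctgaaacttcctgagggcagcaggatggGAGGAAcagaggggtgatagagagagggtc
C1qc: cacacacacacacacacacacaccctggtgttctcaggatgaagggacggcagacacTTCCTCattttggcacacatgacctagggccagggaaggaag
C3: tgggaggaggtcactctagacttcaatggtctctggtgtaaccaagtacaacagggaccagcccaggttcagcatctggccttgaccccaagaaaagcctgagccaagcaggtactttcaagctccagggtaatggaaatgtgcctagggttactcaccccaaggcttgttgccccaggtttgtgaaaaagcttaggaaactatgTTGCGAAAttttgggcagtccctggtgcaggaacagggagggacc

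The motifs were searched on both strands of the 300-base windows. Positions count from the RefSeq start, and in C1qc the 151 bases before that start lie within the annotated gene. The core GAGGAA of PU.1, a transcription factor of myeloid cells, matched at -30 in C1qb, and on the opposite strand (TTCCTC) at -193 in C1qc. It did not match in C3, C3ar1 or C5ar1. The same letters stand in 28.3% of the 32851 RefSeq windows. The C/EBP motif TTGCNNAA, bound by factors of liver and myeloid cells, matched as TTGCGAAA at -45 in C3 and stands in 10.8% of windows. The AP-1 motif TGANTCA matched at -22 in C3ar1 and stands in 7.81% of windows. Neither the STAT motif TTCNNNGAA (8.3% of windows) nor the core of the interferon-stimulated response element (3.44% of windows) matched in any of the 5. No motif overlapped another. These matches describe letters only.

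In each of the 4 convertase components the groups overlapped. C3 is the central component, whose cleavage both pathways share. It ran from 149 to 595 CPM with a median of 279 in WT tumours and from 194 to 828 CPM with a median of 403 in Tn tumours. The highest WT value was in tumour 6 and the highest Tn value in tumour 4. C3 had a log2 fold change of 0.52 ± 0.40 (edgeR adjusted p = 0.323), with a 95% interval from -0.34 to 1.38. It was 0.26 without Tn tumour 4 and 0.82 without WT tumour 6. C3 (ENSMUSG00000024164) lies on chromosome 17, 57510970 to 57535136.

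C4b encodes C4, the substrate of C1s. It ran from 56.7 to 266 CPM with a median of 132 in WT tumours and from 118 to 289 CPM with a median of 178 in Tn tumours. WT tumour 1 was the lowest of all 12. C4b had a log2 fold change of 0.31 ± 0.32 (edgeR adjusted p = 0.474), with an interval from -0.39 to 1.01. It was 0.15 without WT tumour 1, 0.17 without Tn tumour 2 and 0.54 without WT tumour 6. C4b (ENSMUSG00000073418; chromosome 17, 34947354 to 34962856) has a near-identical neighbour, C4a, 65212 bases away, so the split of reads between them is uncertain. C4a itself averaged 6.23 ± 2.96 CPM in WT tumours and 7.25 ± 2.02 CPM in Tn tumours.

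C2 encodes the protease that joins C4 in the classical convertase. It ran from 2.22 to 5.51 CPM in WT tumours and from 2.25 to 7.63 CPM in Tn tumours, so the groups covered nearly the same range. C2 had a log2 fold change of 0.25 ± 0.31 (edgeR adjusted p = 0.553), with an interval from -0.42 to 0.92, and it was -0.0021 without Tn tumour 4, the highest.

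Cfb encodes factor B. It ran from 1.00 to 2.64 CPM with a median of 1.35 in WT tumours and from 1.38 to 4.31 CPM with a median of 2.39 in Tn tumours. The lowest Tn value was in tumour 5, and 2 of the 6 Tn tumours were above every WT tumour. Its log2 difference of 0.71 ± 0.33 missed the threshold (edgeR adjusted p = 0.106, and 0.0549 to 0.265 over the alternatives).

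C2 (ENSMUSG00000024371; chromosome 17, 35081580 to 35117241) and Cfb (ENSMUSG00000090231; chromosome 17, 35075350 to 35081494) are 85 bases apart. The exons listed in the deposited table also include those of Gm20547, a gene on the same strand, which lie wholly within those of C2 and Cfb. It covers 2246 of the 2825 exonic bases of Cfb (79.5%). C2 shares 1817 of its 3872 exonic bases (46.93%) with Gm20547 and Zbtb12. Gm20547 had 0 counts in all 12 tumours. As the counting command was run, a read on exons of more than 1 gene is dropped, so Cfb rests on at most 579 bases of its own and C2 on at most 2055. Their raw counts per tumour ran from 122 to 598 for Cfb and from 270 to 1059 for C2, against at least 13887 for any C1q chain.

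Of the receptors, C3ar1 rose and C5ar1 did not pass the test. C3ar1, the receptor for C3a, held 43.9, 64.5, 39.9, 36.8, 60.2 and 34.7 CPM in WT tumours. It held 143, 108, 73.9, 45.7, 54.4 and 99.9 CPM in Tn tumours. Tn tumours 1, 2, 3 and 6 were above every WT tumour, and Tn tumours 4 and 5 were within the WT range. C3ar1 rose by 0.91 ± 0.27 on the log2 scale (edgeR adjusted p = 0.0202), 1.87-fold with a 95% interval of 1.25 to 2.81. C3ar1 (ENSMUSG00000040552) lies on chromosome 6, 122824097 to 122833120.

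C5ar1, the signalling receptor for C5a, ran from 23.8 to 53.9 CPM with a median of 27.0 in WT tumours and from 26.5 to 72.0 CPM with a median of 37.5 in Tn tumours. Only Tn tumour 1 was above every WT tumour, and WT tumour 2, at 53.9 CPM, was level with Tn tumour 2, at 53.8. C5ar1 had a log2 fold change of 0.42 ± 0.27 (edgeR adjusted p = 0.237), with an interval from -0.16 to 1.01. It was 0.22 without Tn tumour 1 and 0.64 without WT tumour 2, and was not past the threshold in either case. C5ar1 (ENSMUSG00000049130) lies on chromosome 7, 15980668 to 15993465.

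Levels of different genes can be set side by side only per length, here as CPM per kb of exon. In WT tumours C1qa was highest at 225 ± 51.7, then C1qb at 133 ± 34.1, C1qc at 89.7 ± 20.7, C3 at 59.7 ± 32.2 and C4b at 27.1 ± 13.4. C5ar1 at 12.5 ± 4.56 and C3ar1 at 10.8 ± 2.93 followed, and C2 at 0.896 ± 0.310 and Cfb at 0.585 ± 0.257 were lowest. Neighbours in this order overlapped within 1 SD, apart from C1qa with C1qb and C3ar1 with C2. In Tn tumours the level per kb was 685 ± 298 for C1qa, 420 ± 200 for C1qb, 278 ± 128 for C1qc, 85.5 ± 44.99 for C3 and 33.7 ± 10.2 for C4b. C3ar1 at 20.3 ± 8.48 and C5ar1 at 16.8 ± 6.60 changed places, and C2 at 1.07 ± 0.514 and Cfb at 0.958 ± 0.388 were again lowest. Here neighbours overlapped within 1 SD apart from C1qc with C3 and C5ar1 with C2. These SDs measure the spread between tumours. Within every WT and Tn tumour C1qa was above C1qb, and C1qb above C1qc. In Tn tumour 5, for example, they were at 339, 204 and 138 per kb. Per kb of exon not shared with another gene, C2 was at 1.69 ± 0.584 and Cfb at 2.86 ± 1.26 in WT tumours, so Cfb was the higher of the pair on that measure.

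C1q was then set against the other genes within each tumour, as a log2 ratio that does not depend on library scaling. Against the receptors, C1q was relatively higher in every Tn tumour. The log2 ratio of C1qa to C3ar1 averaged 2.34 ± 0.19 in WT and 3.01 ± 0.24 in Tn tumours without overlap, a difference of 0.68. That of C1qa to C5ar1 ran from 2.32 to 3.15 in WT and from 3.51 to 4.27 in Tn tumours, a difference of 1.11. Both gave an exact two-sided permutation p of 0.00216, the smallest that the assignments of 12 tumours allow (adjusted p = 0.00649 over the 18 ratios of 3 chains to 6 genes). C3ar1 thus rose, but by less than C1q.

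Against the convertase components the ratios overlapped between groups. C1qa to C2 differed by 1.32 (exact permutation adjusted p = 0.0260). C1qa to Cfb differed by 0.80 (exact permutation adjusted p = 0.0539), C1qa to C4b by 1.09 (0.0506) and C1qa to C3 by 1.00 (0.113), none past the threshold. C1qb and C1qc gave the same calls, so 9 of the 18 ratios passed, those to C2, C3ar1 and C5ar1. The ratio of C1qa to C3 in the 6 WT tumours was 0.38, -0.44, -0.074, 0.17, -0.028 and -1.54. In the 6 Tn tumours it was 1.597, 1.25, 1.75, -0.94, -0.67 and 1.47. Tn tumours 4 and 5 were thus below 5 of the 6 WT tumours, whereas the other 4 Tn tumours were above every WT tumour. Without Tn tumour 4 all 18 ratios passed the threshold.

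**Figure D2:**
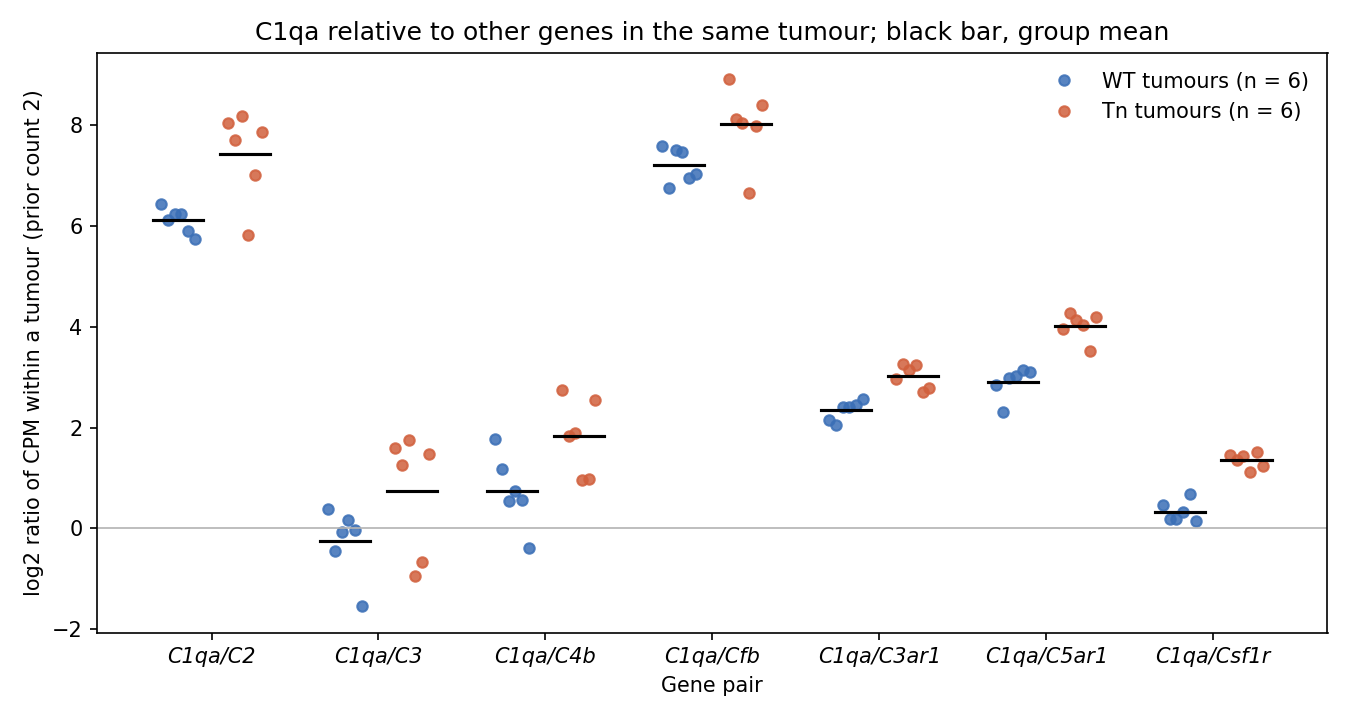
Log2 ratio of C1qa to each named gene within a tumour (prior count 2), with 1 point per tumour (blue, 6 WT; orange, 6 Tn) and the group mean as a black bar. All 6 Tn tumours lie above the WT tumours for C3ar1, C5ar1 and Csf1r, while for C3 the lower 2 Tn tumours (-0.94 and -0.67) lie among the WT tumours.

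Macrophage markers were measured beside C1q, which macrophages make. Of 10 markers 5 rose, beside 19.5% of all genes. They were Adgre1, Mrc1, Aif1, Fcgr1 and Lyz2, which rose by 1.02, 1.00, 1.74, 1.39 and 1.09 on the log2 scale. The count was also 5 without the 3 tumours set apart. Csf1r, the receptor that macrophages need to survive, averaged 185 ± 33.7 CPM in WT tumours and 277 ± 112.2 CPM in Tn tumours (log2 fold change 0.58 ± 0.25, edgeR adjusted p = 0.0877). The list summed to between 1014 and 1566 CPM in WT tumours and between 1218 and 3528 CPM in Tn tumours, and no marker was at 0 in all tumours. Tn tumour 5, at 1218 CPM, was within the WT range of the list, while each of its C1q chains was above every WT tumour. Lyz2 alone made up 724 of these 1218 CPM. Aif1 was the 1 marker of the list whose groups did not overlap, at 28.3 CPM in Tn tumour 5 against at most 27.6 CPM in WT tumours.

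Relative to Csf1r, the C1q chains were higher in all 6 Tn tumours than in any WT tumour, and the other 6 complement genes showed no difference past the threshold. The log2 ratio of C1qa to Csf1r was 0.33 ± 0.21 in WT and 1.35 ± 0.15 in Tn tumours (SD, n = 6 each). The difference was 1.02, with an exact two-sided permutation p of 0.00216 and an adjusted p of 0.00649 over the 9 ratios. For C1qb the difference was 1.06 and for C1qc 1.03, with the same exact permutation adjusted p. For C3ar1 it was 0.35 (exact permutation adjusted p = 0.200), for Cfb 0.22 (0.782), for C3 0.024 (0.965), for C4b -0.070 (0.942), for C5ar1 -0.088 (0.843) and for C2 -0.30 (0.725). With Adgre1 as the denominator the difference for C1qa was 0.60 and still past the threshold. On average C1qa was thus higher relative to either gene in the Tn tumours, but against Adgre1 the groups overlapped. The ratio to Adgre1 in Tn tumour 6 (688 to 71.1 CPM) was below that in WT tumour 5 (328 to 32.3 CPM). Of the macrophage markers, Aif1 rose by 1.74 ± 0.32 and Fcgr1 by 1.39 ± 0.34 on the log2 scale, beside 1.61 ± 0.27 for C1qa. The estimates for the other markers were lower than that for Fcgr1. Ratios of C1qa to markers other than Csf1r, Adgre1 and Cd68 were not tested, so C1qa was not shown to exceed Aif1 or Fcgr1.

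The SD of the log2 ratio of a pair over the 12 tumours measures how alike its members varied, and a low SD means that the pair kept its proportions. The C1q chains were closest to each other. Over all tumours the receptors C3ar1 and C5ar1 came next, at 0.29 (0.19 within groups). C3ar1 was at 0.40 to 0.41 from the C1q chains over all tumours and at 0.19 to 0.22 within groups, while C2 and Cfb were at 0.42 over all tumours. C1qa and C3 were furthest apart of the pairs with C1qa, at 1.07.

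**Figure D3:**
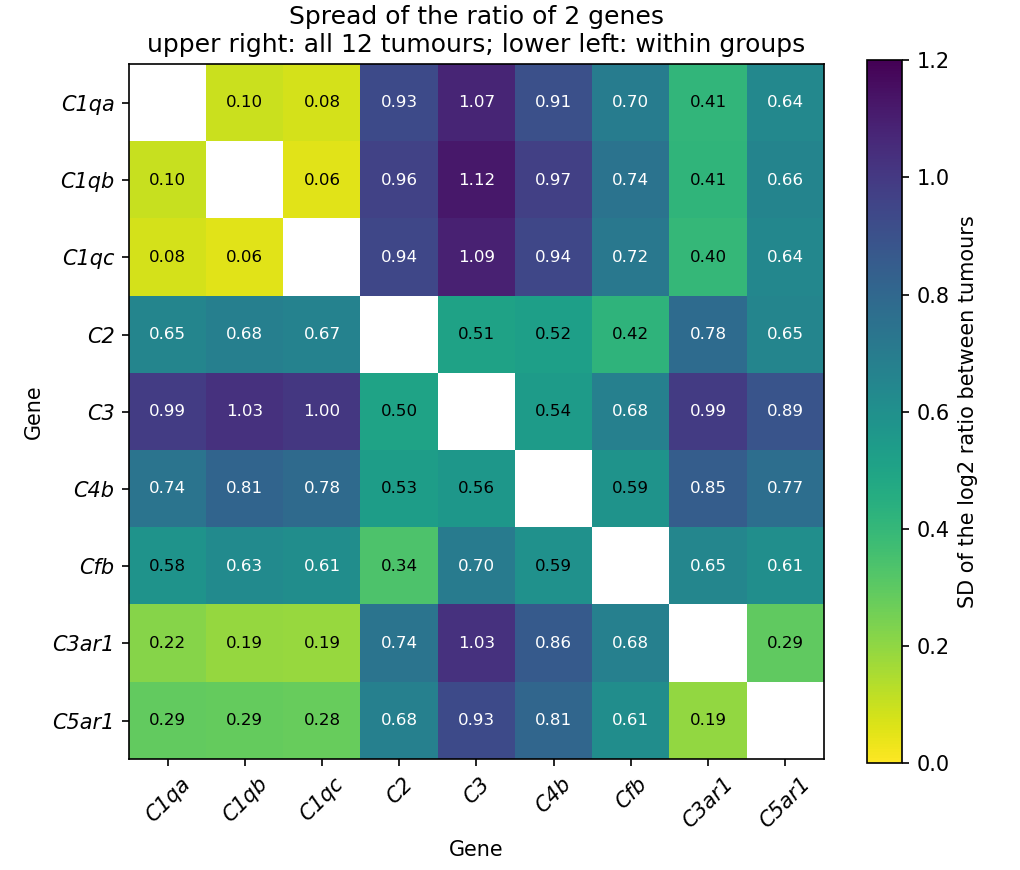
SD of the log2 ratio for each pair of the 9 genes, over all 12 tumours above the diagonal and within groups below it, with yellow for low and purple for high values. The 3 C1q chains form a block at 0.055 to 0.096, and C3 with any C1q chain lies at 1.07 or above over all tumours.

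Among 12833 genes with a mean of at least 1 CPM, those closest to C1qa were C1qc and C1qb, then Ctss at 0.19, Plxdc2 at 0.22 and Aif1 at 0.23, where the median gene was at 0.95. Ctss encodes cathepsin S, a protease of antigen-presenting cells, and Aif1 is a macrophage marker. Closest to C5ar1 were Gpr35 and Ms4a6d, both at 0.18, then Tlr13 at 0.21, Cacna1d at 0.22 and the inflammasome sensor Nlrp3 at 0.23 (median gene 0.58). Closest to Cfb were Plac8 at 0.31, Csf2rb2 and Evl, both at 0.32, Runx3 at 0.34 and Pik3cg at 0.35 (median gene 0.73). C3 had no near neighbour: Slc46a3, the closest, was at 0.41, followed by Map2k6, Ephx1, Ltc4s and Gypc at 0.45 to 0.48 (median gene 0.82). None of the genes named as closest to C3 or C5ar1 was among those named for C1qa. Each list holds only a few of the 12833 genes, and that for C1qa opens with its partner chains. The lack of shared genes therefore cannot decide whether C3 or C5ar1 varied apart from C1qa. This SD includes the difference between the groups, so genes with unlike fold changes lie apart by it. Within groups C1qa was at 0.29 from C5ar1, against 0.64 over all tumours. From C3 it was at 0.99 within groups, against 1.07 over all tumours.

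Another 42 complement genes were listed by role, of which 32 passed the filter on low counts. Of these 5 rose and 6 fell, near the shares of all genes, 19.5% and 17.4%. The median log2 fold change was 0.19, and 4 genes had groups that did not overlap, beside 17.2% of all genes. The number that rose was 3 without the 3 tumours set apart, 3 without WT tumour 1, 3 or 6, and 2 without WT tumour 4.

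Among the C1 proteases, which C1q activates, 1 of 4 rose. C1ra went from 37.6 ± 12.9 to 64.2 ± 19.0 CPM (log2 fold change 0.77 ± 0.25, edgeR adjusted p = 0.0296), a call lost without any 1 of WT tumours 1, 3, 4 and 6 and Tn tumours 1 and 2 (adjusted p = 0.0502 to 0.0622) and without the 3 tumours set apart (0.0868). C1rb (0.69, edgeR adjusted p = 0.0633), C1s2 (0.39) and C1s1 (0.33) were not past the threshold with edgeR. C1rb was past it with DESeq2 (adjusted p = 0.0321) and limma voom (0.0469), and with edgeR without WT tumour 5 (0.0399) or Tn tumour 3 (0.0199). In the lectin pathway 1 of 5 fell. Colec12, a scavenger receptor of the collectin family, went from 97.6 ± 19.0 to 54.8 ± 8.46 CPM without overlap (-0.83 ± 0.13, edgeR adjusted p = 0.000576). Masp1, Fcna and Colec11 were not called by edgeR. Colec11, which had at most 46 counts in any tumour, was called by limma voom (adjusted p = 0.0231) and by edgeR without Tn tumour 4 (0.0335).

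Of the 5 genes tested among C4a and the terminal components, 1 rose and 1 fell. C6, a part of the membrane attack complex, averaged 3.38 ± 1.91 CPM in WT tumours and 29.5 ± 27.6 CPM in Tn tumours (log2 fold change 3.13 ± 0.71, edgeR adjusted p = 0.00496). Its Tn values were 61.7, 66.4, 22.9, 15.6, 3.53 and 7.10 CPM, so that Tn tumour 5 was within the WT range of 0.987 to 6.49. Hc, which encodes C5, the source of the C5aR1 ligand, went from 7.01 ± 2.26 to 3.41 ± 1.10 CPM (-1.04 ± 0.27, edgeR adjusted p = 0.00958). The call for Hc was lost without the 3 tumours set apart (adjusted p = 0.0755). C8g and C4a were not called.

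In the alternative pathway Cfp, which encodes the stabiliser properdin, went from 47.8 ± 14.2 to 77.5 ± 25.0 CPM (0.70 ± 0.23, edgeR adjusted p = 0.0304), a call lost without any 1 of WT tumours 1, 3, 4 and 6 and Tn tumours 1, 2 and 6 (adjusted p = 0.0543 to 0.0696) and without the 3 tumours set apart (0.0798). Cfd, the adipocyte-derived factor D that cleaves factor B, ran from 1.32 to 1015 CPM in WT and from 4.05 to 187 CPM in Tn tumours and was not called (adjusted p = 0.175). Its highest value was in WT tumour 6, which also had the highest adipocyte markers. Of 5 fluid-phase regulators tested edgeR called 0 (also 0 at an unadjusted p under 0.05 and 0 by DESeq2, and 1 by limma voom). The log2 fold changes were -0.56 for Serping1, -1.32 for Cfi and 1.41 for Vtn. Without Tn tumour 4 Cfi was -2.23 (edgeR adjusted p = 0.00966) and Vtn turned to -1.79 (0.0317), each past the threshold as a fall. Without the 3 tumours set apart Cfi was -1.80 (edgeR adjusted p = 0.0307).

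Of 5 membrane regulators tested, 1 rose and 2 fell. Cr1l, which encodes the complement inhibitor Crry, averaged 49.8 ± 2.53 CPM in WT tumours and 64.0 ± 2.06 CPM in Tn tumours. Its groups did not overlap and its spread was narrow (log2 fold change 0.36 ± 0.05, edgeR adjusted p = 0.000241). Cd59a and Cd59b, which encode inhibitors of the membrane attack complex, changed by -1.29 ± 0.36 (edgeR adjusted p = 0.0149) and -1.09 ± 0.36 (0.0303). The call for Cd59b was lost without any 1 of WT tumours 2, 5 and 6 and Tn tumours 1, 3 and 5 (adjusted p = 0.0520 to 0.0685). Cd55 was not called.

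Of 6 other receptors tested, 1 rose and 2 fell. C5ar2, the second C5a receptor and the neighbour of C5ar1 on chromosome 7, ran from 4.21 to 10.7 CPM in WT and from 1.22 to 2.99 CPM in Tn tumours. It fell without overlap (-1.77 ± 0.28, edgeR adjusted p = 0.000627), beside 0.42 ± 0.27 for C5ar1. Vsig4, a macrophage receptor for cleaved C3, went from 1.02 ± 0.445 to 0.371 ± 0.218 CPM (-1.46 ± 0.46, edgeR adjusted p = 0.0250). That call was lost without the 3 tumours set apart (adjusted p = 0.0875), without WT tumour 2 (0.0568) and without WT tumour 5 (0.0571). Itgax, a chain of complement receptor 4, rose by 0.64 ± 0.20 (edgeR adjusted p = 0.0238), a call lost without WT tumour 4 (0.0508). Cd93 had -0.41 ± 0.16 (edgeR adjusted p = 0.0698), and it passed as a fall in 5 of 20 alternatives. Among these were DESeq2 (adjusted p = 0.0455), edgeR without Tn tumour 5 (0.0499) and edgeR with a replicate block (0.0402, the lowest). Cr2, a complement receptor of B cells, did not pass the filter: it was at 76.4 CPM in Tn tumour 4 and at most 0.148 CPM elsewhere.

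**Figure D4:**
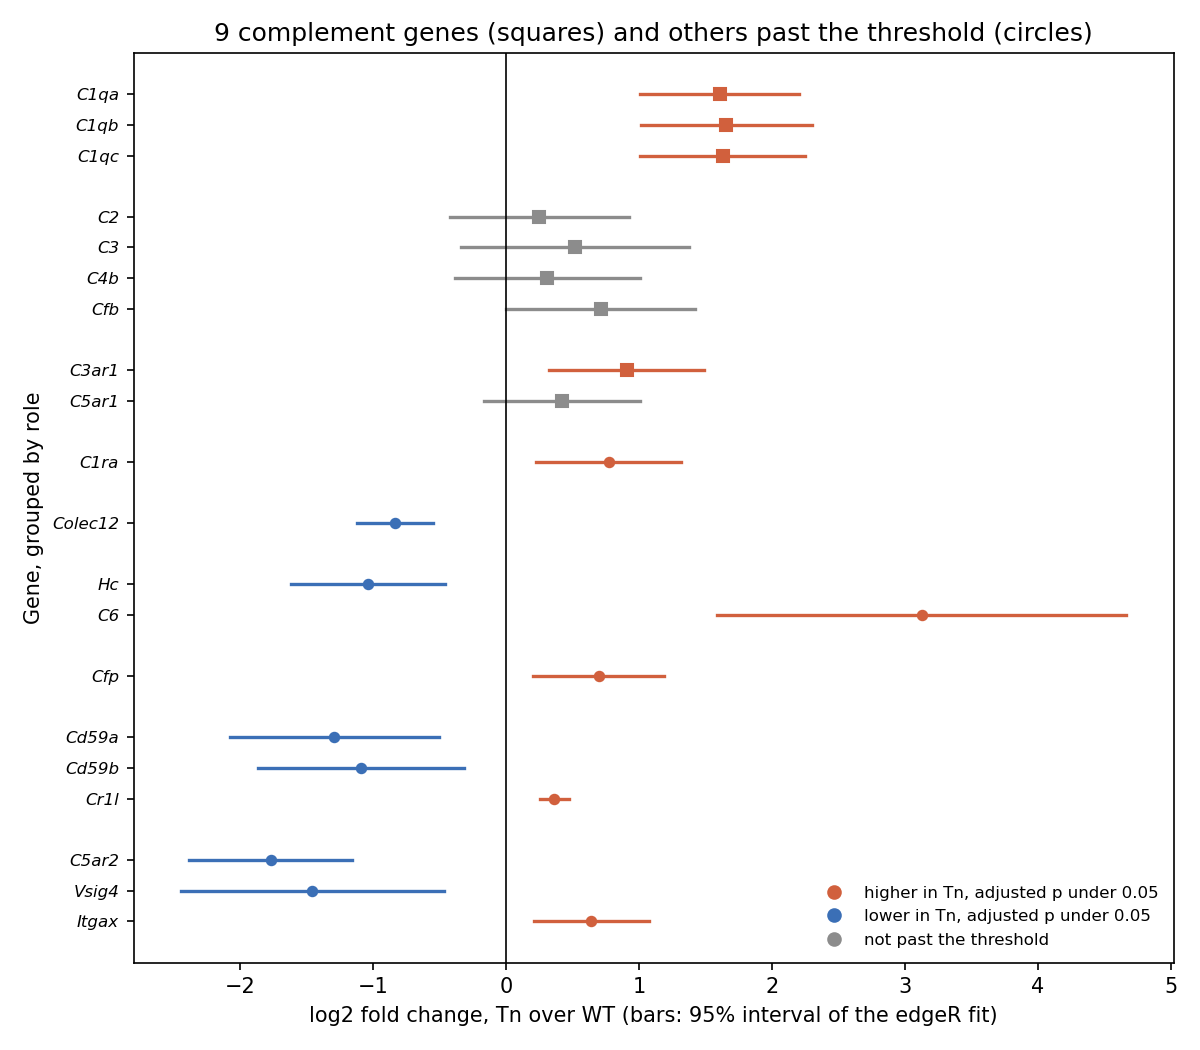
Log2 fold change of Tn over WT with its 95% interval, grouped by role (squares, the 9 genes described; circles, the other complement genes past the threshold, 5 higher and 6 lower; orange and blue, higher and lower in Tn at an adjusted p under 0.05; grey, not past the threshold). The C1q chains lie at 1.61 to 1.66, C6 lies furthest right at 3.13 and C5ar2 is the lowest of the genes called at -1.77.

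Markers of other cells that make complement moved between the groups. Fibroblast markers summed to between 7258 and 19153 CPM in WT and between 3104 and 4362 CPM in Tn tumours, with 8 of 9 lower and Pdgfra higher. Of all genes tested 19.5% rose and 17.4% fell. Of tumour epithelial markers 3 of 8 fell, of endothelial markers 5 of 6 fell, and of T cell markers 6 of 6 rose. Without the 3 tumours set apart these marker counts were the same, except that 4 of 6 endothelial markers fell. Neutrophil markers had 0 of 8 called by edgeR (0 at an unadjusted p under 0.05, 0 by DESeq2 and 1 by limma voom), but 6 of 8 fell without those 3 tumours. They summed to between 31.9 and 120 CPM in WT and between 31.6 and 190 CPM in Tn tumours. Hepatocyte markers, of which 3 of 6 passed the filter on low counts, summed to at most 8.08 CPM in any tumour. C3 was at 149 CPM or more in every tumour. C2, C3 and Cfb were all highest in Tn tumour 4, the tumour with the highest sums of B cell, T cell and neutrophil markers. The part of any of these cell types, hepatocytes included, in the results for C3, C4b, C2 and Cfb was not tested.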

How the data were processed

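Messenger RNA was measured in 12 whole tumours, 6 WT and 6 Tn, grouped by their labels. Per the labels, poly(A) libraries were made with a stranded kit. Per the submitters' processing notes, the tools were fastp 0.23 for trimming, STAR 2.7.11a for alignment (GRCm39) and featureCounts (Subread 2.1.1). What the authors deposited are raw exon counts for each gene, made without a strand setting per the file headers, so reads of overlapping genes on opposite strands cannot be told apart. The gene lengths that the authors deposited beside the counts, in bases, were used for levels per kb.

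Symbols were paired with 56630 of 57186 identifiers through a newer GRCm39 annotation than that of the deposited table. Counts were fitted over 19255 genes with edgeR 4.0.16 in R 4.3.3 (filterByExpr, TMM, robust quasi-likelihood fit, two-sided, Benjamini-Hochberg, threshold 0.05), after a check on simulated counts. The common biological coefficient of variation was 0.358. CPM are TMM-scaled, and log2 ratios use log2 CPM with a prior count of 2 and an exact permutation test over all assignments of 6 of the 12 tumours. The p-values set the difference between the groups against the spread between these tumours. Genes named are the 9 members, up to 4 genes per role with the smallest p, and the 5 genes closest to C1qa, C3, Cfb and C5ar1. Cr2, C7, Masp2, Gm20547, Zbtb12 and the markers named were chosen after their values were seen. For 1 gene that this rule names, the value is not reported here. The members and lists were chosen with earlier results of these data known. As alternatives, DESeq2 1.42.0, limma 3.58.1 voom, RLE or upper-quartile scaling, other filters, prior counts and denominators, a replicate block, and the removal of each tumour or of 3 tumours were tried. Tn libraries are all numbered below WT libraries in their names, and that order cannot be told apart from the group.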

Additional observations from a re-analysis of the deposited data

How the results depend on the processing

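The 4 rises and 0 falls among the 9 complement genes were the same in all 20 alternatives, with the C1qa change between 1.44 and 1.75 and that of C3ar1 between 0.71 and 1.05 on the log2 scale. The smallest adjusted p for Cfb was 0.0549 and for C5ar1 0.0626. The other complement genes that rose numbered 3 with no filter, 3 without the 3 tumours set apart, and 2 to 7 with each tumour left out. With no filter the calls for C1ra, Cfp and Cd59b were lost (edgeR adjusted p = 0.0621, 0.0617 and 0.0526). The C1q ratios that passed numbered 9 to 18 of 18 with each tumour left out. Upper-quartile scaling moved the median of all genes to -0.040.

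The groups share replicate numbers 1 to 6 in the labels. Residuals of same-numbered tumours correlated at -0.18 to 0.23. No WT tumour correlated best with the Tn tumour of its own number, so the numbers were not taken to pair the tumours. With the number as a replicate block, 0 of 18 C1q ratios and 0 of 9 Csf1r ratios passed, where the smallest p is 0.03125 before adjustment. After adjustment a ratio could pass only if most of its set reached that smallest p. These counts of 0 therefore cannot decide whether the ratios differ. The block also ended the calls for C6 (adjusted p = 0.0678) and Cd59a (0.0748), and turned Vtn to -0.90 and Cd55 to -0.18. All genes called higher numbered 2998 with the block and 3752 without.

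Directions turned only for genes or ratios that were not past the threshold with all 12 tumours, and the cause was not tested. Of the turned values, Vtn without Tn tumour 4 was itself past it (adjusted p = 0.0317). Vtn was -0.84 and Cd55 -0.23 with limma voom, and -1.10 and -0.56 without the 3 tumours. With each tumour left out, C2 ran from -0.0021 to 0.43, Masp1 from -0.72 to 0.049, Vtn from -1.79 to 1.95 and Cd55 from -0.78 to 1.16. The ratio differences to Csf1r then ran from -0.29 to 0.24 for C3, -0.27 to 0.11 for C4b, -0.0015 to 0.38 for Cfb and -0.22 to 0.00076 for C5ar1. The C4b ratio was 0.17 without the 3 tumours. With Adgre1 in place of Csf1r the differences were -0.40 for C3, -0.20 for Cfb and -0.078 for C3ar1. With Cd68 they were 0.081 for C4b and 0.063 for C5ar1, and C3ar1 passed the threshold (0.50, exact permutation adjusted p = 0.0390). Counts per tumour were low for Masp2 (13 to 53), Colec11 (0 to 46), C7 (0 to 24), Cfi (2 to 64) and Cd59b (11 to 80). Calls per role and per marker list without the 3 tumours were added after seeing the data.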
